A study of Mus musculus with 4 samples.

Results

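The Ly6c2 Plac8 monocytes of mouse heart grafts were 2013 cells of the 44626 that passed the cell filters (4.51%, interval 4.32 to 4.71) and of the 53824 cells deposited. They were chosen by their counts of unique molecular identifiers (UMIs, each standing for 1 captured RNA molecule). A cell had to have over 200 detected genes, under 20% mitochondrial UMIs, at least 10 UMIs of Lyz2, 5 of Ly6c2 and 10 of Plac8, under 5 of C1qa, under 2 of Mki67, 0 of Cd3e and Cdh5, and under 5% of its UMIs from S100a8 and S100a9 together. Levels of these genes are therefore given as descriptions of the choice. The series held 2 allogeneic and 2 syngeneic hearts, each placed heterotopically into a C57BL/6J recipient and taken on day 5. The allogeneic donors were Balb/C and the syngeneic donors C57BL/6J, and all mice were males of 8 to 10 weeks by the study's methods. The cells came from dissociated whole grafts, so recipient cells that entered a graft and donor cells that came with it cannot be told apart by these labels.

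The 4 sets of cells stand in a single merged matrix and differ by a barcode suffix from 1 to 4, here libraries 1 to 4. Nothing in the labels or the files ties a suffix to a graft. The matrix was therefore 1 pooled sample, allogeneic and syngeneic monocytes were not compared, and no value has a replicate or a test. Intervals are 95% exact intervals that cover counting error only. The libraries held 96020294, 115162601, 138892048 and 166079145 UMIs.

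Classical monocytes leave the bone marrow in response to ligands of their chemokine receptor Ccr2, circulate briefly and enter inflamed tissue, where they can become macrophages or antigen-presenting cells. In the mouse they carry a high surface level of Ly6C, the product of Ly6c2. Nonclassical monocytes carry little Ly6C and patrol the vessel wall. In a rejecting graft, interferon gamma from T and NK cells is known to act on both and to turn on guanylate-binding proteins, the chemokines Cxcl9 and Cxcl10 and, through Ciita, MHC class II. Type I interferons act on an overlapping set of genes.

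Because interferon and MHC class II genes set apart the libraries below, the promoters of 5 of them are shown as their 250 bases before the start of the gene (RefSeq, GRCm38.p6, 5′ to 3′ along the gene). Capitals mark a letter match, which is a description and not a site of binding. In Cxcl10 and Gbp2 the capitals are GAAA, any 2 bases and GAAA, the core of the element that interferon-activated complexes bind, read on either strand. In Irf1 they are TTCNNNGAA, the form of the interferon gamma-activated element, and in H2-Aa and H2-Eb1 they are TGATTGG, the Y box of MHC class II promoters.
Cxcl10, chr5:92348890-92349139, minus strand: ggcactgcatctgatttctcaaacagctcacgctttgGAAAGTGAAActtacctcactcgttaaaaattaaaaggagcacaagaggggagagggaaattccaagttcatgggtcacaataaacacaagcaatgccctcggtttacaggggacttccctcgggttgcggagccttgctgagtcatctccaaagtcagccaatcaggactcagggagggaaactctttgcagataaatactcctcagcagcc
Gbp2, chr3:142620413-142620662, plus strand: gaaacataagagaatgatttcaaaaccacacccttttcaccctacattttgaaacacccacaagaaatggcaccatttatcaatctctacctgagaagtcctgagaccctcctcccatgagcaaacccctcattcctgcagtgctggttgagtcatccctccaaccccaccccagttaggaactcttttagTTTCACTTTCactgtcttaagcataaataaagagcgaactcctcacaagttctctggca
Irf1, chr11:53769764-53770013, plus strand: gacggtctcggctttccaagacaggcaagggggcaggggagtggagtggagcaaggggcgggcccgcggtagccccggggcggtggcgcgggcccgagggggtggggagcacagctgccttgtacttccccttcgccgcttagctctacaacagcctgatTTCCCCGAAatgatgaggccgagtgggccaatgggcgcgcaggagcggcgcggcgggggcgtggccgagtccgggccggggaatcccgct
H2-Aa, chr17:34287824-34288073, minus strand: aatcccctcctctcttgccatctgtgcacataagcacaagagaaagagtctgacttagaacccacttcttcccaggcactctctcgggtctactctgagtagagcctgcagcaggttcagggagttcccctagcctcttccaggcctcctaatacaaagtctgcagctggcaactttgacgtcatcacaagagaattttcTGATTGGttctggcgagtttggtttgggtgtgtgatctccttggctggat
H2-Eb1, chr17:34305617-34305866, plus strand: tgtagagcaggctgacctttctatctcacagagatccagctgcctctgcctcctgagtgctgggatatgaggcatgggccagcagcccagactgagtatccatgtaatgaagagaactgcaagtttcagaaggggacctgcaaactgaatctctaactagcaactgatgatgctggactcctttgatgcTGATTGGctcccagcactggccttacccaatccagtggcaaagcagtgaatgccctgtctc
The GAAA pair stood in 10 of the 23 promoters found for the interferon gamma response genes (20 of 28 genes matched), against 2.98% of all 32851 promoters of that length. TTCNNNGAA stood in 7 of the 23, against 7.02% of all. In the 27 promoters found for the type I interferon response genes (22 of 29 genes matched), the GAAA pair stood in 10 and TTCNNNGAA in 5. TGATTGG stood in 6 of the 8 promoters found for MHC class II genes (7 of 10 genes matched), against 7.23% of all. The matches were searched on both strands, 4 of the 23 interferon gamma promoters held both of the first 2 motifs with 0 sharing bases, and nothing about binding follows from a match or its absence.

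Library 4 held 1978 of the 2013 monocytes (98.3%, interval 97.6 to 98.8). The others held 13, 14 and 8. Of the cells that passed the filters, the monocytes made up 0.126%, 0.106% and 0.0812% in libraries 1 to 3 and 17.5% in library 4. Most values below are thus values of 1 library, and libraries 1 to 3 rest on few cells. A monocyte had a median of 14910 UMIs (lowest 1222, highest 72908), and the medians by library were 15088, 20247.5, 11135.5 and 14885.5. No barcode sequence occurred in the monocytes of more than 1 library, and 20 of their 2013 barcodes also occurred in a cell of another library. Over all deposited cells, 308 of 53516 barcode sequences (0.576%) occurred in more than 1 library. With 1978 of the monocytes in library 4, little overlap among them was possible, and nothing is concluded from its absence. A simulation of doublets marked 87 of the monocytes, all in library 4, where they were 4.40% of the 1978. The simulation was set to mark the top 5% of each library. Nothing is therefore concluded from the number marked or from its library.

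Of the cells that failed a single criterion, 1216 failed C1qa, a complement subunit of macrophages, 622 Ly6c2, 201 Plac8, 166 Cdh5, 136 Cd3e, 95 Mki67, 63 Lyz2 and 11 the neutrophil limit. The 97 cells with exactly 5 UMIs of Ly6c2, just inside the rule, had Ms4a4c at 1081 CPM (UMIs per 1000000 non-mitochondrial UMIs of the same cells) and H2-Ab1 at 7000 CPM. The 100 cells with 4 UMIs, just outside, had 1082 and 6925 CPM. At the C1qa limit, C1qb stood at 994 CPM in the 66 cells with 4 UMIs and at 1480 CPM in the 43 cells with 5. At the minimum of Plac8 the cells were shallow, with medians of 3834 UMIs in the 15 cells with 10 and 5979.5 UMIs in the 24 cells with 9. Chil3 stood at 168 CPM in the former and 2199 CPM in the latter. For Lyz2 only 5 and 7 cells stood at 10 and 9 UMIs, with Cxcl10 at 802 and 5970 CPM.

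Of the 13 markers listed for classical monocytes, 10 were not used by the rule. All 10 were at 20 CPM or more and 7 at 100 CPM or more, but Fn1 stood lower in the monocytes of library 4 (55.8 CPM) than in its endothelial cells (314 CPM). Ms4a6c, a membrane protein of myeloid cells, stood at 1417 CPM, its relative Ms4a4c at 1387 CPM, the haptoglobin gene Hp at 599 CPM and Ccr2 at 518 CPM. A UMI of Ms4a4c was found in 99.6% of the monocytes and one of Ccr2 in 93.9%. Endothelial cells of library 4, which should lack both genes, had a UMI of Ms4a4c in 31.0% and of Ccr2 in 14.9% of cells at a median of 11373 UMIs, against 14885.5 in the monocytes there. The source of these UMIs was not tested, and the level of Ms4a4c in endothelial cells was 29.7 CPM against 1405 CPM in the monocytes. For the genes of the rule, Lyz2, an antibacterial enzyme, stood at 11756 CPM, Plac8 at 6253 CPM and Ly6c2 at 2116 CPM. In endothelial cells of library 4 they stood at 222, 275 and 101 CPM. Of these, Ly6c2 lies on chromosome 15 (75108158 to 75111970, minus strand, ENSMUSG00000022584) within a cluster of Ly6 genes, Plac8 on chromosome 5 (100553725 to 100572245, minus strand, ENSMUSG00000029322) and Lyz2 on chromosome 10 (117277331 to 117282321, minus strand, ENSMUSG00000069516), by GENCODE M21 on GRCm38. A count at the 3′ end of the protein-coding gene does not say which exon or UTR a read came from.

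Markers of other cells ranged widely. All 10 dendritic cell genes were under 20 CPM, as were 7 of the 9 nonclassical monocyte genes and 7 of the 13 macrophage genes. Of the macrophage genes 4 were at 100 CPM or more, namely C1qb (380 CPM), Apoe (227 CPM), C1qc (134 CPM) and the F4/80 gene Adgre1 (120 CPM). All 5 fibroblast genes, led by Col3a1 at 140 CPM, and 3 of 4 red cell genes were at 20 CPM or more. Of the neutrophil genes Ly6g and Ngp were at 0 UMIs, while S100a8 was the most abundant at 380 CPM, and the list held 20 or more UMIs in 108 monocytes (5.37%). The nonclassical list reached 20 UMIs in 61 monocytes (3.03%), the fibroblast list in 14, the T and NK cell and endothelial lists in 6 each, the red cell and B cell lists in 4 each, and the cardiomyocyte and platelet lists in 3 each. Their part in the results was tested only where an alternative is given below. The cell cycle lists were also low, with 2 of 15 S phase genes and 1 of 15 G2M phase genes at 20 CPM or more. The latter list contains Mki67, which the rule limited.

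The most abundant genes outside the rule joined iron storage, the cytoskeleton and antigen presentation. Fth1, the heavy chain of ferritin, led at 15298 CPM and its partner Ftl1 stood at 8144 CPM. Cd74, the invariant chain that escorts MHC class II, stood at 13952 CPM, H2-Ab1 and H2-Aa, the chains of one class II molecule, at 5447 and 5053 CPM, and the class I genes H2-D1, B2m and H2-K1 at 4221, 4154 and 3951 CPM. The membrane protein Ifitm3, which blocks virus entry, stood at 6041 CPM, the cytokine Il1b at 4521 CPM, Ly6a (Sca-1) at 3998 CPM and the interferon-inducible RNA AW112010 at 3947 CPM. Actb, Tmsb4x, Malat1, Tpt1, Fcer1g, Prdx5, Gapdh and Tmsb10 made up the rest of the 20, between 4384 and 14295 CPM. A UMI at the 3′ end counts 1 molecule whatever the length of the transcript, so these levels were compared without a length term.

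Of 16 chemokine ligands 13 stood at 100 CPM or more, with a median of 238 CPM, and of 10 receptors 4 did, with a median of 32.7 CPM. Cxcl9 (2783 CPM) and Cxcl10 (2303 CPM) call T cells that carry Cxcr3, Cxcl2 (1938 CPM) calls neutrophils, Ccl5 (1668 CPM) and Ccl4 (1023 CPM) call T cells and macrophages, and Ccl2 (636 CPM) acts on Ccr2. Among the receptors, Ccrl2 (747 CPM), an atypical receptor, Ccr2 (518 CPM) and Ccr1 (367 CPM) were the highest, while Cx3cr1, the fractalkine receptor of nonclassical monocytes, stood at 4.03 CPM and Cxcr3 at 1.41 CPM. The monocytes thus held RNA of ligands for Cxcr3 at a high level and of the receptor at close to 0. Endothelial cells of library 4 held Cxcl9 at 9788 CPM and Cxcl10 at 2433 CPM, against 2838 and 2347 CPM in its monocytes. The part of free RNA in these levels was not tested. 

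Other effector genes varied more widely in level. Nos2, which makes nitric oxide from arginine, stood at 383 CPM and Acod1, which makes itaconate, stood at 386 CPM. Tnf stood at 188 CPM, the interleukin 1 antagonist Il1rn at 415 CPM, Il6 at 17.7 CPM and Il12b at 0.168 CPM. The inhibitory ligand Cd274 (PD-L1) stood at 498 CPM and the costimulatory receptor Cd40 at 199 CPM. Fc receptors ranged from 340 CPM for the inhibitory Fcgr2b to 800 CPM for Fcgr3, and the signalling chain Fcer1g stood at 4773 CPM. Of the 22 genes listed as transcription factors of monocytes, which include the receptor Csf1r and the inhibitor Nfkbia, 21 were at 20 CPM or more, among them Spi1 (711 CPM) and Irf8 (499 CPM), Klf4 at 175 CPM and Nr4a1, which nonclassical monocytes need, at 222 CPM. Batf3 stood at 41.9 CPM and Irf4 at 1.88 CPM.

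Interferon response and MHC class II genes differed widely between the monocytes of the 4 libraries. Cxcl9 was at 0 UMIs in libraries 1 and 3, where 3 UMIs would be 16.5 and 31.3 CPM, at 1 UMI (3.36 CPM) in library 2 and at 2838 CPM (interval 2819 to 2858) in library 4. Gbp2, a guanylate-binding protein that attacks membranes of intracellular pathogens, stood at 33.0, 10.1, 93.8 and 2214 CPM in libraries 1 to 4. The library with nearly all of the monocytes was the high one for both. Irf1, an interferon-induced factor, stood at 60.5, 13.5, 93.8 and 542 CPM, and Iigp1, an immunity-related GTPase, at 10.999, 0, 10.4 and 646 CPM. Ly6a stood at 33.0, 47.1, 31.3 and 4076 CPM, and Ccl5 at 0, 6.73, 0 and 1701 CPM. The intervals of libraries 1 to 3 lay below that of library 4 for each of these genes.

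**Figure D1:**
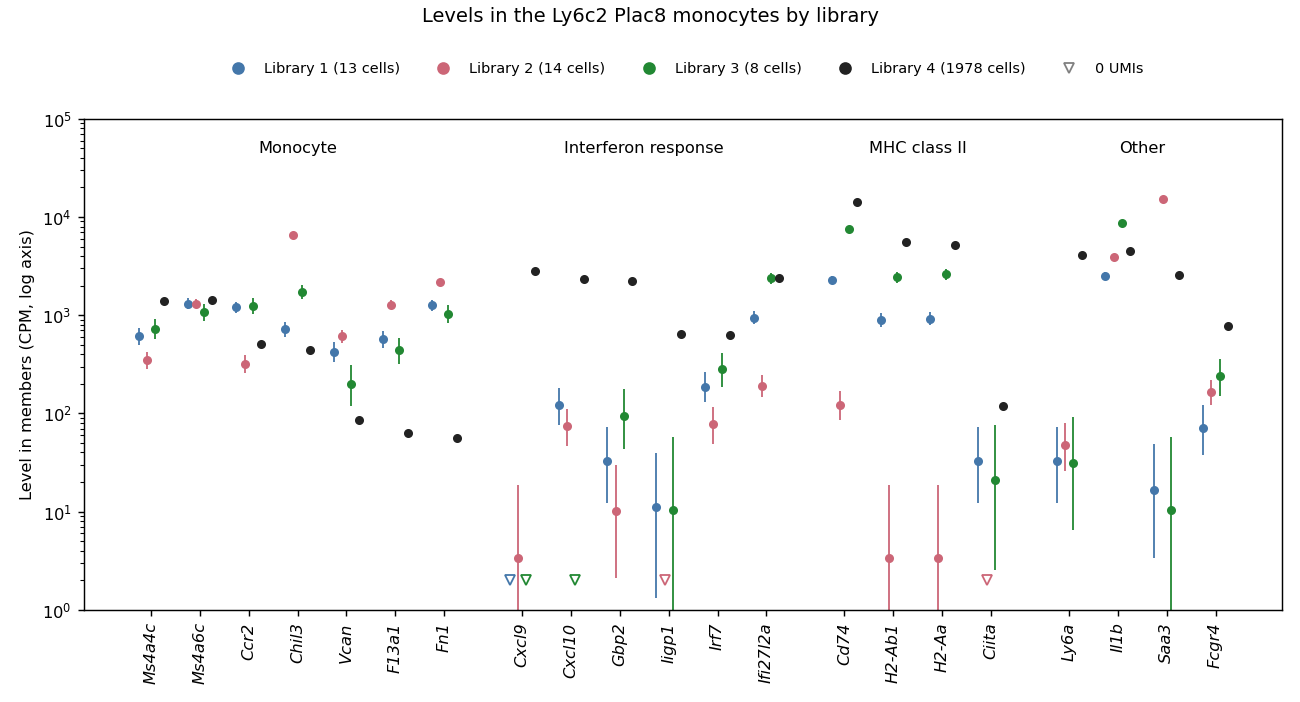
Level of 21 genes in the Ly6c2 Plac8 monocytes of each library, as UMIs per 1000000 non-mitochondrial UMIs on a log axis, with exact Poisson 95% intervals that cover counting error only. Open triangles mark genes at 0 UMIs and are placed near the bottom at no value. Library 4 stands above the others for Cxcl9, Gbp2, Iigp1 and Ly6a, and below them for Fn1, F13a1 and Vcan.

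Summed over 28 genes, the interferon gamma response list took 0.191%, 0.133%, 0.204% and 1.62% of the monocytes' UMIs in libraries 1 to 4. The list was led in library 4 by Cxcl9, and in libraries 1 and 3 by Ifngr1, a chain of the receptor. The same list took 0.244%, 0.118%, 0.188% and 1.43% in C1q macrophages and 0.681%, 0.173%, 0.441% and 2.89% in endothelial cells. In neutrophils it took 0.155%, 0.155%, 0.249% and 2.499%, and in resident macrophages 0.240%, 0.158%, 0.197% and 1.16%. Library 4 was the highest in each of these populations, while the order of libraries 1 to 3 varied between them. Endothelial cells of library 4 held Cxcl9 at 9788 CPM, above the monocytes, and the part of free RNA was not tested. The type I interferon response list differed less, at 0.265%, 0.143%, 0.543% and 0.757% of UMIs in libraries 1 to 4 of the monocytes. Its genes did not share 1 order. Ifit3 stood at 82.5, 0, 62.5 and 73.7 CPM and Isg15 at 127, 16.8, 125 and 184 CPM, while Irf7 stood at 187, 77.4, 281 and 634 CPM. Over all libraries the 2 lists took 1.59% and 0.747% of UMIs, and without library 4 they took 0.163% and 0.248%.

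MHC class II also differed between libraries. The list of 10 genes took 0.536% of UMIs in library 1, 0.0198% in library 2, 1.58% in library 3 and 3.05% in library 4, and the 2.996% over all libraries became 0.443% without library 4. H2-Ab1 stood at 896 CPM in library 1, 3.36 CPM (1 UMI) in library 2, 2428 CPM in library 3 and 5541 CPM in library 4. Cd74 stood at 2299, 121, 7470 and 14187 CPM and Ciita, the class II activator, at 33.0, 0, 20.8 and 119 CPM. Library 2 was the lowest for each. In C1q macrophages the MHC class II list took 3.81%, 0.0802%, 3.08% and 3.95%, so library 2 was also the lowest there, and in endothelial cells 0.0298%, 0.0119%, 0.0263% and 0.374%. H2-K1 and B2m, of class I, stood in the monocytes at 979, 545, 1438 and 4012 CPM and at 1534, 585, 2053 and 4213 CPM.

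**Figure D2:**
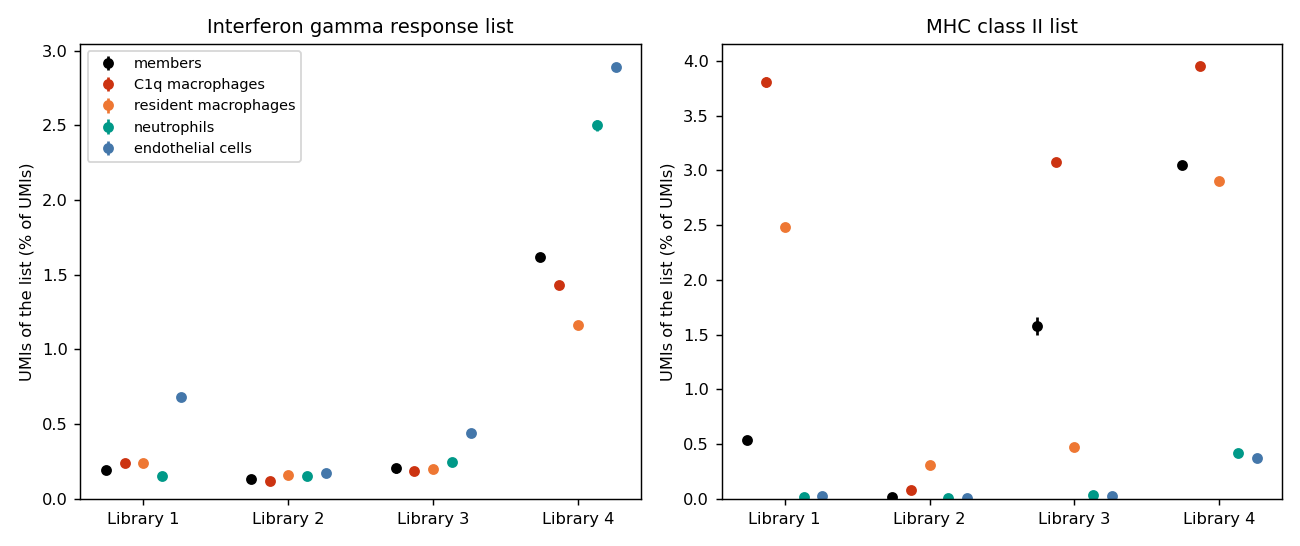
Share of UMIs taken by the interferon gamma response list (28 genes, left) and the MHC class II list (10 genes, right) in 5 cell populations of each library, in percent of non-mitochondrial UMIs. Members are the Ly6c2 Plac8 monocytes. Bars are exact binomial 95% intervals, mostly smaller than the points. In the monocytes the first list takes 1.62% in library 4 and at most 0.204% elsewhere, and the second falls to 0.0198% in library 2.

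Several matrix and classical monocyte genes were lowest in library 4. Fn1, which encodes fibronectin, stood at 1259, 2177, 1031 and 55.8 CPM in libraries 1 to 4. F13a1, a transglutaminase of clots and matrix, stood at 566, 1278, 438 and 62.6 CPM, Thbs1, the matrix protein thrombospondin, at 1749, 3462, 2782 and 283 CPM, and Vcan, a large proteoglycan, at 423, 612, 198 and 85.2 CPM. The 35 monocytes of the small libraries were higher in each of these genes. Markers of some other cells moved with them. The endothelial cell list took 0.0489%, 0.0649%, 0.0271% and 0.00785% of UMIs in libraries 1 to 4, with 6, 5, 5 and 6 of 7 genes detected, Fabp4 the most abundant in each and Cdh5, which the rule limited, at 0. The macrophage list took 0.143%, 0.195%, 0.415% and 0.0986%, led by Apoe in libraries 1 to 3 and by C1qb in library 4. The platelet list took 0.0222% in library 2 and at most 0.00104% elsewhere, led by Pf4 where detected, and the cardiomyocyte list took 0.0148% in library 1 and at most 0.00417% elsewhere. Lists of other cells went the other way. Without library 4 the fibroblast list took 0.0188% of UMIs, 0.399 times its share over all libraries. That share over all libraries was 0.0128% without marked doublets. The T and NK cell list took 0.000348% without library 4, 0.0326 times its share over all. The part of all these cells in the levels of Fn1, F13a1, Thbs1 and Vcan was not tested. Ccr2 stood at 1199, 320, 1240 and 514 CPM. The whole classical monocyte list, which includes genes of the rule, took 4.16%, 2.83%, 4.12% and 2.59% of UMIs in libraries 1 to 4 and 2.61% over all, while Ms4a6c stayed between 1073 and 1419 CPM. 

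The 14 monocytes of library 2 stood apart from the rest. They had Saa3, an acute-phase protein, at 15091 CPM against 16.5, 10.4 and 2550 CPM in libraries 1, 3 and 4, and Spp1, which encodes osteopontin, at 1551 CPM against 82.5, 146 and 51.2 CPM. Chil3, a chitinase-like protein of young monocytes and neutrophils, stood at 715 CPM in library 1, 6520 CPM in library 2, 1730 CPM in library 3 and 440 CPM in library 4. S100a8 stood at 14634 CPM in library 2 against 22.0, 62.5 and 239 CPM, and the neutrophil list took 2.20% of their UMIs against 0.0280%, 0.0302% and 0.0487%, with 8 of 10 genes detected and Ly6g and Ngp at 0. Over all libraries that list took 0.0699%, and 0.0485% without library 2. Library 2 also held 1571 of the 1906 neutrophils, and its endothelial cells took 0.629% of their UMIs from the same list. The part of neutrophil RNA in the library 2 values was not tested.

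Within library 4 the monocytes were set beside 1594 C1q macrophages, cells with at least 10 UMIs of Lyz2 and of C1qa and under 2 of Folr2 and Mrc1. The monocytes had a median of 14885.5 UMIs and the macrophages of 18794. Of 5409 genes with at least 20 CPM in one of them, 24 (0.444%) were at least 2-fold higher in the monocytes, with 10 CPM added to both levels, and 36 (0.666%) at least 2-fold lower. Together these were 60 genes (1.11%), genes of the rule included, and both populations were chosen on C1qa. The median log2 fold over all genes tested was 0.01. The values are descriptions, since 1 library holds both populations. Of the 1594 macrophages, 952 (59.7%) also reached the minimums of Ly6c2 and Plac8 set for the monocytes. Against the other 642, an alternative added after the values were seen, 54 of 5491 genes (0.983%) were higher in the monocytes and 104 (1.89%) lower, with all 24 and 36 genes among them. In that alternative 3 of 3 red cell genes tested were higher and 3 of 5 fibroblast genes lower. Both lists had 0 genes called against all 1594. The part of RNA from other cells was not tested.

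Chil3 led the genes higher in the monocytes. It stood at 440 against 108 CPM (3.80-fold), Ifitm6, a myeloid relative of Ifitm3, at 187 against 46.2 CPM (3.50-fold) and Mcemp1, a myeloid membrane protein, at 248 against 79.2 CPM (2.89-fold). The calcium-binding protein S100a4 stood at 582 against 199 CPM, the protease Napsa at 295 against 95.8 CPM, Hp at 572 against 231 CPM and Vcan at 85.2 against 31.1 CPM. The protease inhibitor Slpi, the adhesion receptor Adgre5 (CD97), the orphan receptor Gpr141, the actin-binding protein Lsp1, Ifi205, an interferon-inducible DNA sensor, and Gsr and Mgst1 of glutathione metabolism were between 2.16- and 2.51-fold higher. Treml4, a gene of nonclassical monocytes and macrophages, stood at 51.7 against 12.6 CPM. Of the 10 classical monocyte genes outside the rule, 3 passed the fold of 2 upward (Chil3, Vcan and Hp) and 0 downward, with a median log2 fold of 0.70. The levels of Ccr2 were 514 and 334 CPM and those of Ms4a4c 1405 and 801 CPM. Against the 642 macrophages under a minimum of Ly6c2 or Plac8, 6 of the 10 classical genes were higher and 1 lower. The median log2 fold was then 1.19. The 642 were left after macrophages at both minimums were taken out, and Ly6c2 and Plac8 are themselves on the classical list. The larger count thus also describes that choice.

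The lower side held genes of tissue macrophages. C1qc stood at 136 against 2400 CPM (16.5-fold lower) and C1qb at 385 against 4916 CPM (12.5-fold lower). Both are partners of C1qa in 1 complex, so they follow the choice. Apoe, a lipid carrier, stood at 198 against 1647 CPM and the chemokine Ccl8 at 113 against 841 CPM. Also lower were Fabp5 (182 against 595 CPM), Lgmn (221 against 693 CPM), Cd63 (40.9 against 163 CPM), Pltp (19.3 against 105 CPM), Trem2 (26.7 against 84.7 CPM) and the membrane protein Ms4a7 (16.8 against 98.2 CPM). The lipid-associated macrophage list had 5 of 10 genes lower and 0 higher, with a median log2 fold of -0.94. Against the 642 macrophages under a minimum of Ly6c2 or Plac8, it had 8 of 11 lower and 1 higher, with a median of -1.55. The macrophage list outside the rule had 6 of 7 lower, which include C1qb and C1qc beside Apoe, Ms4a7, Mertk and Trem2. Against the 642 macrophages it had 7 of 8 lower. Cd72 stood at 25.4 against 144 CPM and the chemokine Pf4 at 9.17 against 56.4 CPM.

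Of 14 chemokine ligands tested, 4 were at least 2-fold lower in the monocytes, namely Ccl7 (137 against 390 CPM), Ccl8, Ccl12 (233 against 652 CPM) and Cxcl16, and 0 were higher. Ccl7, Ccl8 and Ccl12 are ligands that draw monocytes, and Cxcl16 is bound by Cxcr6. Ccl2, which also draws monocytes, was not past the fold of 2. The interferon gamma response list had 27 genes tested and 0 past the fold of 2, with a median log2 fold of 0.23, and Cxcl9 stood at 2838 CPM in monocytes and 3558 CPM in macrophages. MHC class II had 0 of 7 genes past it (median log2 fold -0.32), MHC class I 0 of 16 (0.12), glycolysis 0 of 17 (-0.12) and oxidative phosphorylation 0 of 28 (-0.09). The type I interferon list had 1 of 28 higher, Ifi205. Since 1.11% of all genes were called, a count of 0 in lists of this size is near the background. Against the 642 macrophages under a minimum of Ly6c2 or Plac8, the interferon gamma, MHC class II and MHC class I lists again had 0 genes past it, and 6 of the 14 chemokine ligands were lower, Ccl5 and Cxcl1 beside the 4 above. The 3 lists had medians of 0.26 for the interferon gamma response, -0.44 for MHC class II and 0.14 for MHC class I.

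**Figure D3:**
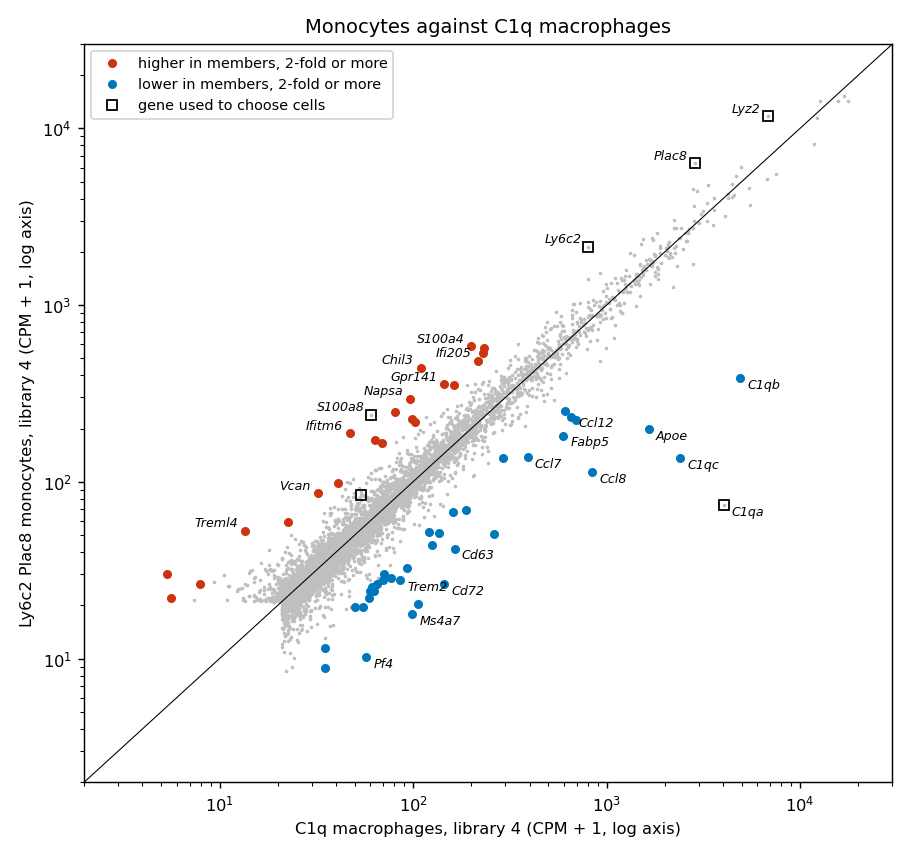
Level of 5409 genes in the 1978 Ly6c2 Plac8 monocytes (members, vertical) against the 1594 C1q macrophages (horizontal) of library 4, in CPM with 1 added for drawing, on log axes. Red and blue points are genes at least 2-fold higher or lower in the monocytes, squares are genes that chose the cells, and the line marks equal levels. Most genes lie along the line, Chil3 and Ifitm6 above it and Apoe and Ccl8 below.

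In library 4, 3190 cells met every other criterion, of which 731 had 0 UMIs of C1qa and 1212 (38.0%) had 5 or more. C1qa stood at 72.9 CPM in the monocytes, with a UMI in 63.0% of them, and at 74.7 CPM in endothelial cells, with a UMI in 57.9%. The rule bounded C1qa in the monocytes and not in endothelial cells. Its partners, which the rule did not bound, stood at 385 against 85.3 CPM (C1qb) and 136 against 39.0 CPM (C1qc). In steps of C1qa chosen after the values were seen, C1qb stood at 297 CPM in the cells with 0 and at 5459 CPM in the 649 cells with 50 or more. Apoe stood at 224 and 876 CPM in these end steps, Ccl8 at 93.7 and 899 CPM and Fabp5 at 172 and 684 CPM. In the other direction, Chil3 stood at 447 and 106 CPM, S100a4 at 613 and 205 CPM, Vcan at 86.1 and 28.1 CPM and Treml4 at 53.0 and 9.76 CPM. Apoe was at 205 CPM in the 130 cells with 5 to 9 UMIs and at 223 CPM in the 132 cells with 10 to 19, against 164 CPM (interval 155 to 172) in the 661 cells with 1 UMI and 422 CPM in the 301 cells with 20 to 49. Cxcl9 lay between 2698 and 3061 CPM over all steps. The median depth was 14459 UMIs at 0 and 22145 UMIs at 50 or more, so a count limit on C1qa also moved with depth, and its part was not tested.

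**Figure D4:**
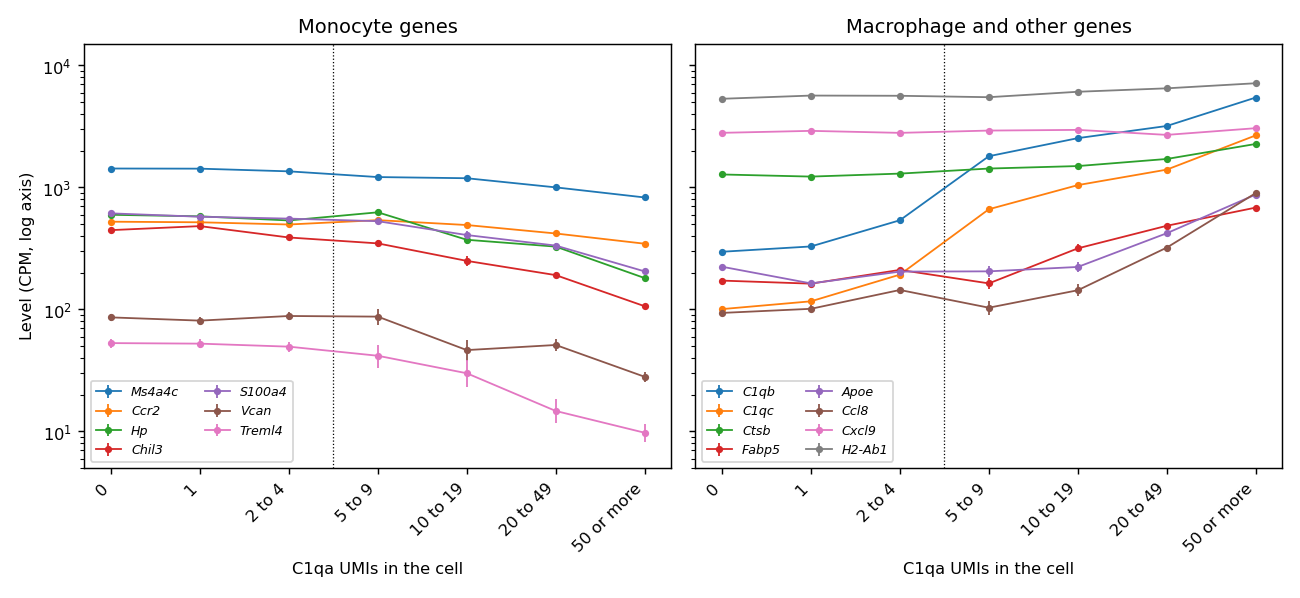
Level of monocyte genes (left) and of macrophage and other genes (right) in the 3190 library 4 cells that met every criterion but C1qa, by their C1qa UMIs, in CPM on a log axis with exact Poisson 95% intervals. The dotted line is the limit of 5 UMIs, with the monocytes on its left. Chil3 moves from 447 to 106 CPM and C1qb from 297 to 5459 CPM, while Cxcl9 stays between 2698 and 3061 CPM.

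Resident macrophages, with at least 2 UMIs each of Folr2 and Mrc1, were 77 cells in library 4. Apoe stood at 6105 CPM in them and 198 CPM in the monocytes, Chil3 at 25.6 and 440 CPM, Ccr2 at 121 and 514 CPM and Il1b at 530 and 4527 CPM. Cxcl9 stood at 2899 and 2838 CPM and H2-Ab1 at 5079 and 5541 CPM. Of these genes, Cxcl9 and H2-Ab1 were the closest in level.

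Nonclassical monocytes, cells with at least 10 UMIs of Plac8, 3 of Ear2 and 2 of Ace and under 5 of Ly6c2, numbered 8 in library 4 and 28 over all, of which 17 were in library 1. The 8 cells held 79513 non-mitochondrial UMIs, so that 3 UMIs were 37.7 CPM, more than the minimum of 20 CPM. Of 5841 genes tested, 837 (14.3%) were at least 2-fold higher in the Ly6c2 Plac8 monocytes and 519 (8.89%) lower, 1356 (23.2%) in all. Counting error and difference cannot be told apart for most of these genes, and the comparison is a description. With the libraries pooled, 225 of the 837 genes were still called higher, 144 of the 519 were still called lower and 208 of the 1353 called genes outside the rule turned sign.

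Genes of patrolling monocytes were low in the Ly6c2 Plac8 monocytes. Ace and Ear2, which chose the nonclassical cells, stood at 13.7 against 440 CPM and 14.5 against 453 CPM. Outside the rules, the receptor Cd300e stood at 4.79 against 239 CPM (19 UMIs), Adgre4, a relative of F4/80, at 14.1 against 189 CPM (15 UMIs), Treml4 at 51.7 against 402 CPM (32 UMIs) and the factor Pou2f2 at 68.8 against 516 CPM (41 UMIs). Cx3cr1 stood at 3.39 against 88.0 CPM on 7 UMIs. The kinase Grk3, the lipid phosphatase Plpp1 and Gm19951 were lower as well, at 43.4 against 352, 26.0 against 214 and 13.4 against 126 CPM. Of the 9 nonclassical genes, 8 passed the fold of 2 downward, Ace and Ear2 included. Adgre4, Spn, Cx3cr1, Pglyrp1 and Eno3, also among them, were under 20 CPM in the Ly6c2 Plac8 monocytes of library 4. They reached the minimum of 20 CPM only through the nonclassical cells, as did Cd300e and Gm19951. The count thus describes the choice and the minimum, and no conclusion is drawn from it.

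The 10 genes of largest fold in the other direction all had 0 UMIs in the 8 cells, so their folds are lower bounds against 3 UMIs over the group. Ccr1, a receptor for Ccl3 and Ccl5, stood at 368 CPM and was at least 9.75-fold higher. The protein-coding gene Gm15056 was at least 7.63-fold higher and the leukotriene receptor Ltb4r1 at least 6.56-fold. For the matrix protein Sparc and the nuclear receptor Nr4a2 the bounds were 4.16- and 4.15-fold. In library 4 endothelial cells Sparc stood at 2629 CPM, against 157 CPM in the monocytes. Mtch1, Ccl9, Il1r2 (a decoy receptor for interleukin 1), Tubb2a and the factor Maf had bounds between 2.69- and 3.26-fold. Of these, Mtch1 (123 against 205 CPM) and Tubb2a (106 against 246 CPM) were also lower in the monocytes than in endothelial cells. Of the classical list outside the rule, 6 of 10 passed the fold of 2 upward, with Ccr2 at 514 against 176 CPM and Chil3 at 440 against 50.3 CPM, and 9 of 14 chemokine ligands did, Ccl2 and Cxcl2 among them. Of the macrophage genes outside the rule 4 of 6 passed it upward (C1qb, C1qc, Adgre1 and Apoe), and of the red cell genes 2 of 3. Neither list had a gene past it downward. All 5 fibroblast genes also passed the fold of 2, with the fibroblast list at 0.0476% of UMIs in the Ly6c2 Plac8 monocytes against 0.00880%. Over all libraries it took 0.0471% in the monocytes and 0.0128% without marked doublets, and 14 of them had 20 or more UMIs of it.

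Among the monocytes themselves, 1912 of library 4 could be thinned at random to 5000 UMIs each, which puts all cells at 1 depth. Over 1582 genes with a mean of at least 0.5 UMIs, the median of variance over mean was 1.17, where 1 would be Poisson counting alone. Saa3 varied most, at 42.9, with a median of 2 UMIs, 30.5% of cells at 0 and a highest cell at 242. The ferritin chains Fth1 (40.6) and Ftl1 (20.4) and the heme-degrading enzyme Hmox1 (21.2) were among the 15 most variable. So were the chemokines Cxcl2 at 24.1, Ccl5 at 20.4, Cxcl10 at 19.8, Ccl4 at 15.8 and Cxcl9 at 15.6. Il1b, Apoe, Ifitm1, Gm15056, Malat1 and Cd74 made up the rest, between 11.9 and 16.8. Cxcl9 had a median of 9 UMIs and a 95th percentile of 43, with 7.95% of cells at 0, while Ccl5 had a median of 3 and a 95th percentile of 36.

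Cells of the population differed in their MHC class II UMIs. The list had a median of 150 UMIs per thinned cell, with a 5th percentile of 43 and a 95th of 271. Across the 1912 cells, which share 1 library and 1 depth, Spearman's rho was -0.40 between Ly6c2 and H2-Ab1, -0.42 between Chil3 and H2-Ab1, 0.83 between H2-Aa and H2-Ab1 and 0.10 between Cxcl9 and H2-Ab1. The sums of the MHC class II and classical monocyte lists had a rho of -0.35, or -0.33 with the rule's genes left out of the latter, and those of MHC class II and the interferon gamma response -0.14. These are descriptions across cells, which are not replicates, and Ly6c2 was bounded below by the rule.

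The 478 cells richest in MHC class II held at least 198 UMIs of the list and the 478 poorest at most 108, and these are called the class II high and low groups. Of 5397 genes outside the list, 23 (0.426%) were at least 2-fold higher in the high group and 52 (0.963%) at least 2-fold lower. The cells were split on values from the same library, so the counts describe the split. Chil3 stood at 104 CPM in the high and 1130 CPM in the low group (10.0-fold), and Vcan at 23.8 and 185 CPM. F13a1 stood at 26.8 and 141 CPM, the annexin Anxa1 at 30.5 and 134 CPM, Mgst1 at 116 and 422 CPM and S100a4 at 304 and 966 CPM. Of the 10 classical monocyte genes outside the rule, 5 were at least 2-fold lower in the high group, Chil3, Vcan, F13a1 and Fn1 among them, and 0 higher, with a median log2 fold of -0.96 against -0.05 over all genes tested. Ms4a4c (1335 and 1582 CPM), Ccr2 (485 and 583 CPM) and Hp (454 and 796 CPM) were not past it. The others among the 10 of largest fold were the neutrophil genes Lcn2 and Mmp8 and genes of red cells and fibroblasts (Hbb-bs, Hba-a1 and Col1a1). In an alternative, 116 cells (6.07%) were left out. They had 20 or more UMIs of the neutrophil, fibroblast, red cell, T and NK cell, endothelial or cardiomyocyte list. Whether those UMIs came from other cells was not tested. Without these cells, 23 genes were lower in the high group. Chil3 then stood at 98.9 and 915 CPM and Vcan at 21.8 and 164 CPM, while Hbb-bs stood at 20.9 and 8.46 CPM and Col1a1 at 15.6 and 25.8 CPM. Hba-a1 stood at 8.46 and 4.90 CPM. The fold of Lcn2 went from 4.75 to 2.10 (5.35 and 22.3 CPM) and that of Mmp8 from 3.91 to 2.46 (12.0 and 44.1 CPM).

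The cells high in MHC class II were higher in the chemokines Cxcl16 (369 and 124 CPM) and Ccl5 (2500 and 979 CPM), in Apoe (326 and 118 CPM) and in the DNA-degrading enzyme Dnase1l3 (161 and 58.2 CPM). Cd300c2 stood at 328 and 131 CPM, Basp1 at 381 and 171 CPM, Creb5 at 184 and 76.2 CPM, Spon1 at 152 and 61.1 CPM, P2ry14 at 152 and 65.3 CPM and Klrb1b at 61.1 and 18.4 CPM. Of the macrophage genes above, C1qb stood at 467 and 309 CPM. Interferon genes split, with Cxcl10 at 1750 and 3065 CPM, Gbp2 at 1851 and 2778 CPM and Cxcl9 at 3095 and 2603 CPM, all short of a fold of 2.

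**Figure D5:**
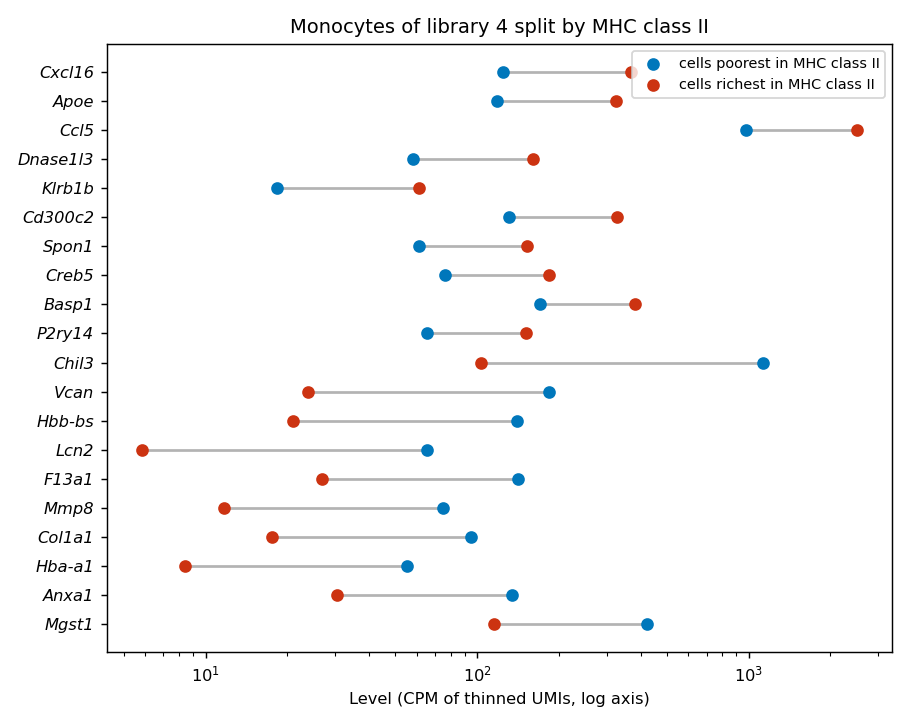
Level of the 10 genes of largest fold in each direction between the library 4 monocytes richest and poorest in MHC class II UMIs, 478 cells each, in CPM of UMIs thinned to 5000 per cell, on a log axis. Lines join the values of 1 gene. Chil3 shows the widest gap, at 104 and 1130 CPM. Without cells that carry 20 or more UMIs of the neutrophil, fibroblast, red cell, T and NK cell, endothelial or cardiomyocyte list, Col1a1 falls short of a fold of 2. Hbb-bs and Hba-a1 then turn direction, also short of it.

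Split by Cxcl9 instead, the 478 richest cells held at least 21 and the 478 poorest at most 3 UMIs of it. Of 5360 genes, 21 (0.392%) were at least 2-fold higher and 15 (0.28%) lower in the rich cells. Procr, the endothelial protein C receptor, stood at 126 and 16.7 CPM (5.07-fold), Ccl5 at 2546 and 955 CPM and Cd40 at 318 and 124 CPM. The survival genes, Bcl2a1a (214 and 81.2 CPM) and Bcl2a1d (201 and 75.7 CPM), were higher too, but they are near copies whose reads can be split between them. Gm15056, Marcksl1, Dnase1l3, Gpr84 and the nuclear receptor Nr1h3 were between 2.11- and 2.61-fold higher. Lower in the cells rich in Cxcl9 were Cxcl3 (1.26 and 50.2 CPM), Ifitm1 (130 and 455 CPM), Ifitm6 (115 and 310 CPM), Thbs1 (152 and 403 CPM), Hmox1 (303 and 664 CPM), Apoe (148 and 325 CPM), F13a1 (33.5 and 110 CPM), Adam8 (34.3 and 110 CPM) and Mmp8 (10.5 and 59.8 CPM). Chil3 stood at 468 and 523 CPM and Ly6c2 at 2055 and 2453 CPM, both short of a fold of 2 in this split.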

How the data were processed

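Single cells of 4 heart grafts were profiled with the 10x Chromium 3′ kit, version 3. The deposited values are UMI counts from Cell Ranger 3.0.0 (mm10, genes of Ensembl 92), not normalized by the authors, in 1 merged matrix of 30905 genes and 53824 cells. The labels also name CASAVA 1.8 and Seurat. No column beyond the matrix was used.

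The filters were over 200 genes and under 20% mitochondrial UMIs per cell. The monocytes and populations beside them were chosen by the UMI limits in the report. The members and the 37 gene lists (432 of 434 genes found, Clec7a and Mx2 not matched) were chosen with earlier results of these data known. Levels are summed UMIs over non-mitochondrial UMIs, with exact Poisson or Clopper-Pearson 95% intervals. A gene of at least 20 CPM in one population was called at a fold of 2 with 10 CPM added. Of called genes with 50 CPM or more and outside the rule, the 15 of largest fold each way against C1q macrophages and 10 each way elsewhere were named, with the 20 most abundant, the 15 most variable and genes of the lists. Some genes this rule names are not reported here. Cells were thinned to 5000 UMIs, which left out 66 monocytes. For 62 symbols on more than 1 row, the row with most UMIs was kept. Ly6c1, Ly6c2 and Ly6i are close copies, so reads may be split between them. Doublets were marked per library by simulation (50 neighbours, top 5%). Promoters are from RefSeq (GRCm38.p6). Pooled levels, fold calls, Poisson intervals, thinning and doublet scores were tested on simulated data, and the other steps were not. Python 3.11.15, numpy 2.4.6, scipy 1.17.1, pandas 2.3.3, scikit-learn 1.9.0 and matplotlib 3.10.9 were used.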

Additional observations from a re-analysis of the deposited data

How the results depend on the processing

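The number of monocytes, 2013, became 2439 with the UMI minimums of Lyz2, Ly6c2 and Plac8 halved, 1551 with them doubled, 760 with C1qa at 0 UMIs and 1926 without marked doublets, and library 4 held 98.8% of them with doubled minimums and 96.2% with C1qa at 0. A minimum of 500 genes or a limit of 10% mitochondrial UMIs left both values within their counting intervals. Against C1q macrophages, the 24 higher genes became 41 with 1 CPM added and 12 with 50 CPM, and the 36 lower genes became 16 with 50 CPM added and 70 with libraries pooled. Without the macrophages that reached the minimums of Ly6c2 and Plac8, a choice made after seeing the data, the 24 became 54 and the 36 became 104. None of the 56 called genes outside the rule turned sign under the 10 alternatives tried. A change of the added or minimum CPM cannot turn a sign, so the outcome of those alternatives was fixed in advance. Counting mitochondrial UMIs only rescales the totals. Against nonclassical monocytes, the 837 higher genes became 169 with 50 CPM added, 1466 with no minimum, 440 with libraries pooled and 173 with a minimum of 100 CPM, and the 519 lower genes became 101 with 50 CPM added and 178 with that minimum, which was chosen after seeing the data. Also chosen after seeing the data were the alternatives for the class II high against low group: with 50 CPM added the 23 higher genes became 4 and the 52 lower became 18, and without cells carrying another cell type's UMIs the 52 became 23. The others tried left these counts within 1.5 times.

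Shares of UMIs were judged against counting intervals, which are narrow here. With the minimums halved, then doubled, the lists took 2.52% and 2.81% (classical monocyte), 3.02% and 2.87% (MHC class II), 1.58% and 1.62% (interferon gamma response), 0.730% and 0.773% (type I interferon response) and 0.0873% and 0.0653% (neutrophil). As means over cells they took, in that order, 2.68%, 3.04%, 1.63%, 0.770% and 0.0664%, and with mitochondrial UMIs in the total 2.52%, 2.89%, 1.54%, 0.722% and 0.0675%. Without doublets the classical monocyte, MHC class II and neutrophil lists took 2.66%, 3.02% and 0.0627%. Without library 1 the first 3 took 2.60%, 3.01% and 1.60%, without library 2 the MHC class II, interferon gamma, type I interferon and neutrophil lists took 3.03%, 1.61%, 0.753% and 0.0485%, and without library 4 all 5 took 3.47%, 0.443%, 0.163%, 0.248% and 1.15%. Of the other 32 lists, 16 moved by over 1.5 times without library 4, 1 as a mean over cells and 1 without doublets, both the fibroblast list. The causes were not tested. No paired analysis was possible because no barcode suffix is tied to a graft. With 35 monocytes outside library 4, differences between the small libraries are limited by the number of cells.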

Other observations

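Other gene groups of the Ly6c2 Plac8 monocytes, given as levels over all libraries, included peptide processing and glycolysis. The immunoproteasome subunits Psmb8, Psmb10 and Psmb9 stood at 2078, 929 and 819 CPM, the peptide transporter genes Tap1 and Tap2 at 631 and 326 CPM and the loading factor Tapbp at 629 CPM. Of 17 glycolysis genes 15 stood at 100 CPM or more, led by Gapdh (4536 CPM), Pkm (1949 CPM) and Aldoa (1520 CPM), and 26 of 28 oxidative phosphorylation genes did, with Cox8a at 1306 CPM. The integrin chains Itgb2, Itgam and Itgal, which hold leukocytes to the vessel wall, stood at 606, 213 and 166 CPM in that order.

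Of 16 pattern recognition genes found, 5 stood at 100 CPM or more, among them the co-receptor Cd14 (1103 CPM), Tlr2 (305 CPM) and the lectin Clec4e (604 CPM), while Tlr4 stood at 24.2 CPM and Tlr9 at 1.91 CPM. Pirb and Pira2, of the paired immunoglobulin-like receptors, stood at 767 and 110 CPM. All 14 early response genes were at 20 CPM or more, with Junb at 1709 CPM, Fos at 1185 CPM and the heat shock gene Hspa1a at 137 CPM, and the part of tissue dissociation in these was not tested. Among the Ly6 genes, Ly6e stood at 2263 CPM and Ly6i at 1873 CPM, the latter at 27.5, 10.1, 0 and 1910 CPM in libraries 1 to 4, while Ly6c1 stood at 42.6 CPM. Ly6i and Ly6c1 are close copies of Ly6c2, so their levels are uncertain.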
